A study of Mus musculus with 24 samples.

Results

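Pro-B cells of Mki67-/- mice were compared with pro-B cells of WT mice by ATAC-seq, an assay in which a transposase cuts and tags open DNA. Members were the 4 libraries labelled Mki67-/- Pro-B and the 4 labelled WT Pro-B, which make 8 of the 24 libraries of a study of B-cell progenitors sorted from mouse bone marrow at 3 stages, of which pre-pro-B cells come before and small pre-B cells after the pro-B stage. Mki67-/- marks both copies of Mki67 as lost; the labels give neither the design of the allele nor the strain, age or sex of the mice. Nor is it stated that each library is a different mouse; the p-values below therefore reflect variation from library to library, which may be technical. Each library is described by its own list of peaks on mm10, and no read counts were used.

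Mki67 encodes Ki-67, a nuclear protein made by dividing cells that coats mitotic chromosomes and organises heterochromatin around nucleoli. Pro-B cells are the stage at which the heavy-chain locus Igh is assembled: a D segment joins a J segment, and a V segment then joins that DJ unit. The Rag proteins cut only DNA in open chromatin, so V, D and J segments must be accessible before they can be joined. Pro-B cells depend on IL-7 and on the transcription factors Ebf1 and Pax5, and they divide before and after a heavy chain is made.

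Entries of a list that overlapped or touched were merged on chromosomes 1 to 19 and X. The Mki67-/- libraries 1 to 4 held 76062, 71244, 77213 and 73415 merged peaks, against 79268, 74289, 74928 and 70307 in WT libraries 1 to 4. These ranges overlap, and the difference in means was smaller than the spread (two-sided exact permutation test, p = 0.943, adjusted p = 0.943). The peaks covered 30.6 ± 2.4 Mb in Mki67-/- and 30.0 ± 1.49 Mb in WT libraries (SD, n = 4 each, exact p = 0.714). Peaks within 1 kb of a gene end made up 22.7 ± 0.649% of the Mki67-/- and 22.5 ± 0.736% of the WT lists (SD, n = 4 each, exact p = 0.743), and the shares in gene bodies and between genes also overlapped between genotypes. The number of open sites detected and their distribution over genes did not differ between the genotypes beyond this spread.

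Background coverage, recovered from the deposited fold enrichments and p-values as a stand-in for depth, was 2.08 to 3.73 in Mki67-/- and 2.85 to 3.34 in WT libraries, with the lowest value in Mki67-/- library 2. Libraries 1 and 2 of both genotypes had 20 to 23 entries on the Y chromosome and libraries 3 and 4 had 38 to 44, so this property was balanced between genotypes. The defining genes of pro-B cells were open in all 8 libraries: each of the 10 pro-B markers had a peak among the 40000 strongest in every library, and their summed peak number was 63 to 67 in Mki67-/- and 65 to 68 in WT libraries. Of the T and NK markers, Cd3e, Cd8a, Bcl11b and Ncr1 had no peak among the 40000 strongest in any library, and the list summed to 3 to 5 peaks in Mki67-/- and 5 to 6 in WT libraries. Of the erythroid markers, Gata1 and Hbb-b1 had none in any library, while Klf1 and Epor had strong peaks in all 8, with median ranks of 2120 and 2206.5; the list summed to 5 to 8 peaks in Mki67-/- and 5 to 6 in WT libraries. The myeloid markers summed to 7 to 9 in Mki67-/- and 6 to 10 in WT libraries, and the plasmacytoid markers to 8 to 10 in Mki67-/- and 9 in each WT library. The part of such cells in the results below was not tested. In such bulk samples, fewer cells with an open site and less opening per cell cannot be told apart.

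The Mki67 gene itself (mm10 chromosome 7, 135689784 to 135716450) kept an open promoter in the Mki67-/- libraries. The peak over its start site ranked 5505, 5143, 5702 and 6637 in Mki67-/- libraries 1 to 4, against 6558, 4543, 4770 and 4866 in WT libraries 1 to 4, where rank 1 is the strongest peak of a library. These ranks overlap, and the difference did not pass the test (adjusted p = 0.52). The position of the change in the gene is not given in the sources used here, so a peak at the promoter does not check the genotype. The promoter is shown because it is the start of the gene labelled as lost, with promoters whose opening differed between genotypes below it. Each sequence is the 300 bases from 250 before to 50 after the start site, 5′ to 3′ on the gene's strand, from RefSeq on GRCm38.p6. Capitals mark 5 motifs searched on both strands: CCAAT (the site of NF-Y), GGGCGG (the GC box of Sp factors), CCGGAAG (an Ets site), TGACGTCA (the cAMP response element) and GCATGCGC (the core of the NRF1 site); these motifs do not contain each other. Mki67 lies at chr7:135716330-135716629 on the minus strand, and Dglucy, the promoter among the 10 regions that rose most clearly, at chr12:100778807-100779106 on the plus strand. Taok3, Usp3 and Nadsyn1, at the start of which regions fell, lie at chr5:117119879-117120178 (plus), chr9:66593066-66593365 (minus) and chr7:143822803-143823102 (minus). Nadsyn1 is thus on the same chromosome as Mki67 and within 10 Mb of it.
Mki67: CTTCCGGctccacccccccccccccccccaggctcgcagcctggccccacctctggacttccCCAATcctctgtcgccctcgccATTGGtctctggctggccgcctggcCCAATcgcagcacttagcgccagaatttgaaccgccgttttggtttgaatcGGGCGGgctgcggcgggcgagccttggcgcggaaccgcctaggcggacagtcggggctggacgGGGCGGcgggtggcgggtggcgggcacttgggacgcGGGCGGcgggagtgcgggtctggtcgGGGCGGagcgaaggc
Dglucy: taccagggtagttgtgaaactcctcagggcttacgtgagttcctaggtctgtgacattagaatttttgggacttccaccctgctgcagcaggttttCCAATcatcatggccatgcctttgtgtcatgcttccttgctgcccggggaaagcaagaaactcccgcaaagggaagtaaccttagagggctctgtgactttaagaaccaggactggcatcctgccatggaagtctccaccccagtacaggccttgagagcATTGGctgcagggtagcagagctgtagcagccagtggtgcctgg
Taok3: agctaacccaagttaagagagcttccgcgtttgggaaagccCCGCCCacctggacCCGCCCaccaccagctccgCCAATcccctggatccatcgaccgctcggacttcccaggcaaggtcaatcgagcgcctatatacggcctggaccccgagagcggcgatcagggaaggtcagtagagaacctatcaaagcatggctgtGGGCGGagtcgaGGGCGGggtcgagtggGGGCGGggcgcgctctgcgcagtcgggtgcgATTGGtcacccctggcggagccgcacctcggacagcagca
Usp3: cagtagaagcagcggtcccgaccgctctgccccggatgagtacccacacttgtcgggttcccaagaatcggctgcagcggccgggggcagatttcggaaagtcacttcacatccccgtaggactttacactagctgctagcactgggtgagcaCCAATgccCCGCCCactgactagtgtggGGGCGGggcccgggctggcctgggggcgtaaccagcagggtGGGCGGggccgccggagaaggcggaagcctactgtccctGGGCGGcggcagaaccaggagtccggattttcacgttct
Nadsyn1: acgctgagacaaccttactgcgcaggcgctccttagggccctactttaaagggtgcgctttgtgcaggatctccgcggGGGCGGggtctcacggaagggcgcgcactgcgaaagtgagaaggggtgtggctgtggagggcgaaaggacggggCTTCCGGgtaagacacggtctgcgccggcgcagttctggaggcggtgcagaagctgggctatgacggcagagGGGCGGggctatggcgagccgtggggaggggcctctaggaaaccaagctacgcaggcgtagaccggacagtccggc
The Mki67 promoter holds 3 CCAAT and 4 GGGCGG matches and the Dglucy promoter 2 CCAAT matches and no GGGCGG. The Taok3, Usp3 and Nadsyn1 promoters hold 5, 4 and 2 GGGCGG matches. Their G+C content is 72.7% for Mki67, 53% for Dglucy, 65.3% for Taok3, 65% for Usp3 and 65.7% for Nadsyn1.

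Although the number of peaks was alike, the order of peak strength differed between genotypes at many regions. Peaks were ranked within each library by the authors' -log10 q, the 40000 strongest were kept, and each rank was turned into a rank score, a normal score that is 0 at rank 20000, 0.3 at rank 15284 and 1 at rank 6347. Of 48803 regions joined over the 8 libraries, 30862 had a peak among the 40000 strongest in every library and were tested with limma. In Mki67-/- pro-B cells 1778 regions (5.76% of those tested) ranked higher and 1929 (6.25%) ranked lower at an adjusted p under 0.05, so 12% were called in all. The changes were small: the median difference was 0.30 in rank score for the regions that rose and -0.33 for those that fell. The count depended on single libraries and on the ranking. Without WT library 2, 609 regions rose and 626 fell. Without Mki67-/- library 4, 1063 rose, and without WT library 3, 1107 fell. When peaks were ranked by fold enrichment instead, 39 regions rose and 40 fell (0.261% of 30285 tested). Under that ranking the regions called by -log10 q had a median difference of 0.30 for those that rose and -0.34 for those that fell, with the same sign at 97% of 1624 and 95.7% of 1687 regions measured there. The within-group SD of the rank score was larger by fold enrichment, with a median of 0.193 against 0.125 by -log10 q. Both rankings come from the same libraries, so the second is no independent support. The 90th percentile of fold enrichment among the 40000 strongest peaks was 24.4, 23.5, 24.9 and 23.6 in Mki67-/- libraries 1 to 4, against 27, 27.6, 26.5 and 24.8 in WT libraries 1 to 4. It was thus lower in most Mki67-/- libraries, and its part in the rank differences was not tested.

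The 10 regions that rose with the smallest p were mostly away from gene ends: 3 lay in gene bodies, 5 between genes and 2 at gene ends. A region at a gene end lies within 1 kb of either end of a gene, its start or its other end. The first was a site in the body of Gpatch2, nearest to an end of Spata17 and 67.2 kb from it (chromosome 1, 187282757 to 187283238). It ranked 7132, 6973, 8492 and 8399 in Mki67-/- libraries 1 to 4, against 31168, 24165, 26143 and 24841 in WT libraries 1 to 4. Every Mki67-/- library placed it far above every WT library (rank score difference 1.3 ± 0.0981 SE, adjusted p = 2.24e-07), and it was also called by fold enrichment (difference 1.79, adjusted p = 0.00199). A region between genes, 763 kb from Cdh9, a cadherin gene (chromosome 15, 15965212 to 15965794), ranked 16919, 16401, 18481 and 15799 in Mki67-/- libraries, against 35755, 32622, 34611 and 36667 in WT libraries. In WT libraries it lay near the bottom of the 40000 peaks, and in Mki67-/- libraries near their middle (difference 1.35 ± 0.157 SE, adjusted p = 5.47e-05; by fold enrichment 1.44, adjusted p = 0.00298). A site in the body of Tmem63a, which encodes an ion channel (chromosome 1, 180956947 to 180957438), ranked 10723, 12893, 12315 and 11653 in Mki67-/- libraries, against 31738, 23122, 24737 and 26934 in WT libraries. Here too the genotypes did not overlap (difference 0.97 ± 0.113 SE, adjusted p = 5.47e-05). A site 0.58 kb from an end of Rpa1, within the gene, the gene of the large subunit of replication protein A, ranked 4074, 5212, 3744 and 4113 in Mki67-/- libraries, against 10206, 9537, 9205 and 8656 in WT libraries (chromosome 11, 75300839 to 75301742; difference 0.52 ± 0.0602 SE, adjusted p = 5.47e-05). The promoter of Dglucy, which encodes D-glutamate cyclase, ranked 6506, 6373, 5843 and 6592 in Mki67-/- libraries, against 16793, 13281, 11462 and 12906 in WT libraries (chromosome 12, 100778877 to 100779231; difference 0.59 ± 0.0704 SE, adjusted p = 6.65e-05). The others were nearest to Ehd3, Cdc42ep3, Prelid2, Pde8a and Sbk1, with differences of 0.52 to 0.79, and in none of the 10 did the ranks of the genotypes overlap. By fold enrichment 2 of the 10 passed, those near Spata17 and Cdh9, and all 10 kept their direction. The site near Sbk1 lies on chromosome 7 within 10 Mb of Mki67.

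Of the 10 regions that fell with the smallest p, 8 were at gene ends. The strongest change was at a site between genes, 46 kb from Hnrnpll, whose product controls splicing of the Cd45 transcript in lymphocytes (chromosome 17, 79982124 to 79983457). It ranked 17040, 13499, 9809 and 11553 in Mki67-/- libraries 1 to 4, against 2149, 2643, 2386 and 2898 in WT libraries 1 to 4. A prominent WT peak thus stood much lower in the Mki67-/- lists (difference -1.07 ± 0.0815 SE, limma adjusted p = 4.71e-07). By fold enrichment the difference was -0.47 (limma adjusted p = 0.0853). The promoter of Usp3, which encodes a deubiquitinase of histone H2A, ranked 3509, 3609, 2206 and 4322 in Mki67-/- libraries, against 690, 405, 727 and 968 in WT libraries (chromosome 9, 66592482 to 66593696). It was the one that also passed by fold enrichment, of 8 of the 10 that were measured there (difference -0.74 ± 0.0804 SE, adjusted p = 3.76e-05; by fold enrichment -0.69, adjusted p = 0.0405). The promoter of the kinase gene Taok3 ranked 12049, 11113, 10894 and 10813 in Mki67-/- libraries, against 5698, 3245, 4539 and 4759 in WT libraries (chromosome 5, 117119802 to 117120612; difference -0.63 ± 0.0664 SE, adjusted p = 2.59e-05). The end of Hsp90aa1, which encodes an inducible chaperone, ranked 8564, 8989, 9732 and 10078 in Mki67-/- libraries, against 2114, 2304, 4461 and 3776 in WT libraries (chromosome 12, 110695659 to 110696911; difference -0.70 ± 0.0766 SE, adjusted p = 3.76e-05). All 4 of these sites separated the genotypes completely. The start shared by Nadsyn1, an enzyme gene of NAD synthesis, and Dhcr7, an enzyme gene of cholesterol synthesis, ranked 4807, 6101, 4611 and 5736 in Mki67-/- libraries, against 1503, 1410, 1905 and 2338 in WT libraries (chromosome 7, 143822384 to 143823354; difference -0.59 ± 0.0659 SE, adjusted p = 3.76e-05), but its difference by fold enrichment was -0.05 (adjusted p = 0.862). A site 0.866 kb from Hes1, a repressor gene switched on by Notch, ranked 22176 to 24454 in Mki67-/- and 11292 to 14417 in WT libraries (chromosome 16, 30064008 to 30064490; difference -0.70 ± 0.0861 SE, adjusted p = 7.77e-05). The rest were at C2cd5, Supt4a, Rabggtb and Arhgap25, with differences of -0.61 to -0.50, and the genotypes overlapped in none of the 10. Of the 10, the start of Nadsyn1 lies within 10 Mb of Mki67 on the same chromosome.

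**Figure D1:**
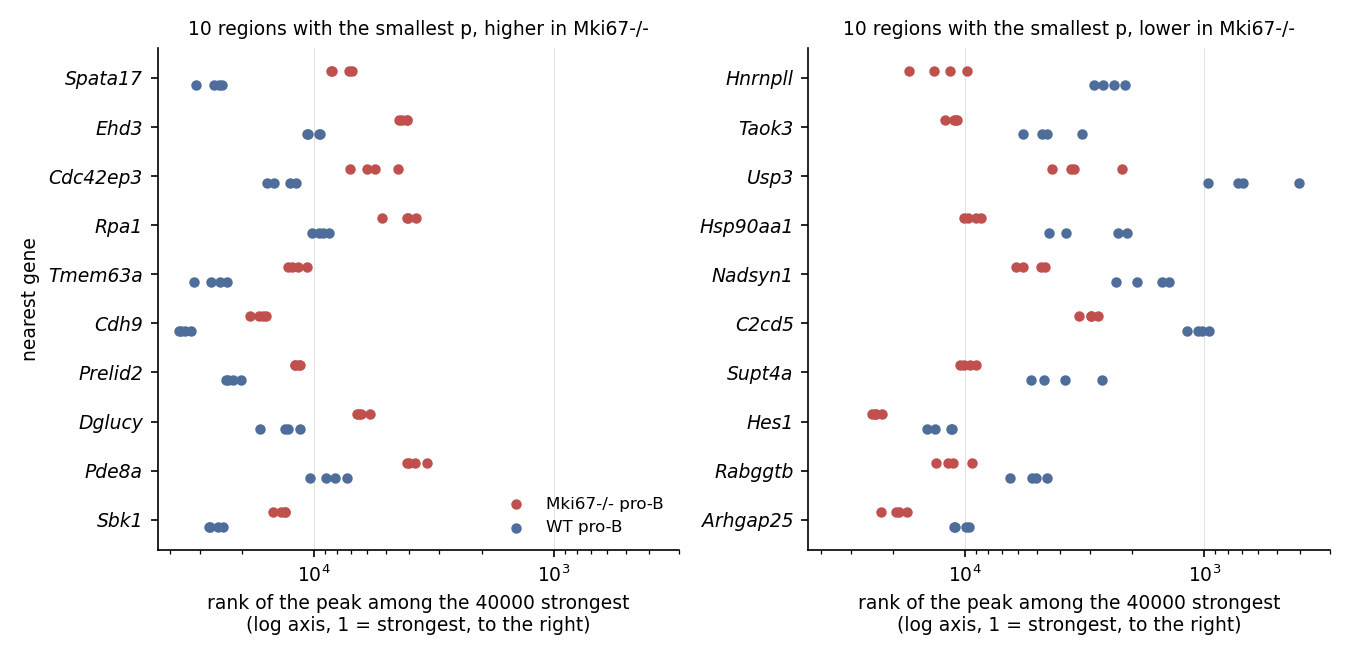
Rank of the peak in each library at the 10 regions per direction with the smallest limma p, named by the nearest gene; each point is 1 library and the horizontal axis is logarithmic with the strongest peaks to the right. At every region the 4 Mki67-/- libraries (red) and the 4 WT libraries (blue) do not overlap, for example 6973 to 8492 against 24165 to 31168 near Spata17.

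With peaks ranked by -log10 q in the 8 libraries, regions that fell were concentrated at gene ends and regions that rose lay mostly away from them. Of 10790 regions within 1 kb of a gene end, 1121 (10.4%) fell and 367 (3.4%) rose. Of 11070 regions in gene bodies, 465 (4.2%) fell and 764 (6.9%) rose, and of 9002 regions between genes, 343 (3.81%) fell and 647 (7.19%) rose. Gene ends thus held 58.1% of the regions that fell and 20.6% of those that rose. The mean rank score of gene-end regions was 0.679, 0.678, 0.729 and 0.717 in Mki67-/- libraries 1 to 4, against 0.726, 0.765, 0.741 and 0.747 in WT libraries 1 to 4. As a single value per library the genotypes overlapped, and the difference of -0.0437 did not pass (exact permutation test, p = 0.0571, adjusted p = 0.114 over 3 classes). For regions between genes the mean score was 0.119 ± 0.0172 in Mki67-/- and 0.0894 ± 0.0178 in WT libraries (SD, n = 4 each, exact p = 0.0857, adjusted p = 0.114), and for gene bodies 0.157 ± 0.0137 and 0.136 ± 0.0186 (SD, n = 4 each, exact p = 0.114, adjusted p = 0.114). The pattern of more falls than rises at gene ends and more rises than falls elsewhere was counted in 16 of 17 alternative fits. The exception was the fit to the regions open in all 24 libraries, where 527 regions fell and 112 rose. These fits share most or all of their libraries with the main fit, so such agreement was likely from the outset. The size of the pattern varied. The share of gene-end regions that fell exceeded the share that rose by 6.99 percentage points. Without WT library 2 this excess was 2.8, and by fold enrichment, where few regions were called, it was 0.0199. By fold enrichment 0.0796% of gene-end regions fell and 0.0597% rose, against 0.158% and 0.163% elsewhere. Falls were thus not concentrated at gene ends under that ranking. In the fit to all 24 libraries, 3.16% of gene-end regions and 3.12% of regions elsewhere fell.

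The direction of change at promoters moved with their G+C content. Promoters in the table of RefSeq starts were assigned to a tested region where at least 150 bases overlapped, which placed 11239 promoters. Those in regions that rose had a median G+C of 57.7% and 15 CpG (n = 375), those in regions that fell 65.7% and 27 CpG (n = 1308), and those in all tested regions 62% and 22 CpG. The promoters were split into 4 equal bands of G+C. In the band with the highest G+C, 17.6% lay in regions that fell and 0.891% in regions that rose. In the band with the lowest G+C the shares were 6.52% and 5.93%. The difference in mean rank score between the highest and the lowest band was 0.111, 0.197, 0.179 and 0.152 in Mki67-/- libraries 1 to 4, against 0.207, 0.346, 0.295 and 0.258 in WT libraries 1 to 4. The genotypes did not overlap in this property of the libraries (exact permutation test, p = 0.0286, the smallest p that 4 against 4 allows, adjusted p = 0.0857 over 3 stages). In small pre-B cells the same difference was 0.18 ± 0.07 in Mki67-/- and 0.252 ± 0.0312 in WT libraries, and in pre-pro-B cells 0.0355 ± 0.0574 and 0.00157 ± 0.0485 (SD, n = 4 each, exact p = 0.0571 and 0.429). When the scores of the 8634 regions with a promoter were centred within each library in 10 bands of G+C, a setting chosen after seeing the data, 669 regions (7.75%) rose and 723 (8.37%) fell, against 413 (4.78%) and 1167 (13.5%) as they were. Of the regions called as they were, 391 that rose and 697 that fell were called in the same direction after centring. The falls at Usp3 and Taok3 were then -0.68 ± 0.0745 and -0.57 ± 0.0579, and the rise at Dglucy was 0.59 ± 0.0675 in rank score (SE, limma adjusted p of 1.41e-05, 1.03e-05 and 1.67e-05). The part of G+C content in the differences away from promoters was not tested.

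Motifs differed along with base composition. CCAAT was present in 54.7% of promoters in regions that rose, 27.1% of those in regions that fell and 38.8% of all promoters in tested regions, against 37.6% of all 32619 promoters in the table. GGGCGG was present in 50.1%, 76.1% and 68.7% in the same order, against 35.9% in the whole table. Within the band of 29% to 56.3% G+C, CCAAT was found in 57.9% of promoters in regions that rose and 40.4% of those in regions that fell, against 46.3% of all tested promoters of that band. Within the band of 62.3% to 68% the shares were 57.7%, 31.8% and 38.8%. In the band of highest G+C, which holds more falls than any other, they were 28%, 19.5% and 27.6%, so the promoters that rose (n = 25) were there close to all promoters of the band. GCATGCGC was found in 2.13% of promoters that rose, 10.3% of those that fell and 6.04% of those tested. TGACGTCA was found in 1.87%, 4.66% and 3.63%, and CCGGAAG in 15.5%, 19.6% and 20.4%. These shares describe letters in the window and not binding.

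**Figure D2:**
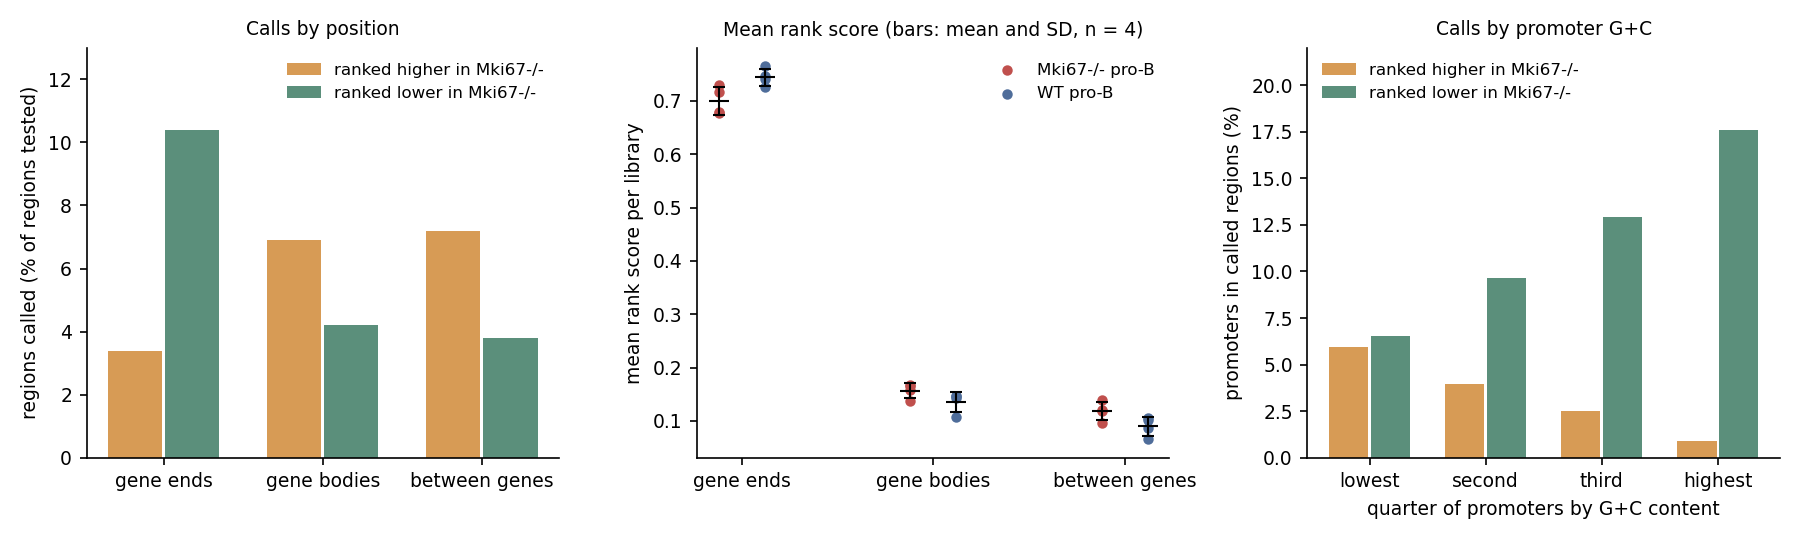
Left, regions called in each direction as a percentage of the regions tested in each position class (gene end, gene body, between genes); middle, mean rank score per library (points) with mean and SD of 4 libraries, Mki67-/- in red and WT in blue, on an axis that does not start at 0; right, promoters in called regions by band of promoter G+C content. Falls reach 10.4% at gene ends and 17.6% in the band of highest G+C, where rises are at 0.891%.

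Libraries of the other stages, which took no part in the calls, showed the same direction in small pre-B cells for the regions that rose. Small pre-B cells are the resting stage that follows heavy-chain expression. Of the 1778 regions, 929 were represented among the 40000 strongest in all 8 libraries of this stage; their median difference, Mki67-/- minus WT, was 0.18 in rank score, with a positive sign at 828 (89.1%). The 20244 measurable regions not called in pro-B cells had a median of 0.00 with 50.1% positive. Of the regions that fell, 1831 were measurable, with a median of -0.06 and 28.3% positive. A peak was present in 79.3 ± 5.62% of the regions that rose in Mki67-/- small pre-B libraries and 58 ± 2.1% in WT small pre-B libraries (SD, n = 4 each), and the libraries did not overlap. For regions not called, the shares were 86.2 ± 2.79% and 80.5 ± 1.41% (SD, n = 4 each), so Mki67-/- small pre-B libraries held more of these too. For regions that fell, the shares were 97.2 ± 0.929% and 97.4 ± 0.386% (SD, n = 4 each). In pre-pro-B cells, an earlier stage, the shares for the regions that rose were 46.4 ± 0.0538% in Mki67-/- and 45.1 ± 0.502% in WT libraries (SD, n = 4 each), with a median difference in rank score of 0.04 and 59.9% positive. For regions that fell, the pre-pro-B shares were 87.6 ± 0.966% in Mki67-/- and 88.5 ± 0.547% in WT libraries (SD, n = 4 each), and the median difference was 0.02 with 56.9% positive, opposite in sign to pro-B cells. By fold enrichment that pre-pro-B median was 0.18, with 0.11 for regions that rose and 0.10 for those not called. By fold enrichment the medians in small pre-B cells were 0.19, 0.02 and 0.04 for regions that rose, fell and were not called. In small pre-B cells the 90th percentile of fold enrichment was 20.04, 24.69, 22.64 and 23.95 in Mki67-/- libraries 1 to 4. In WT small pre-B libraries 1 to 4 it was 26.68, 24.28, 24.84 and 25.64. Background coverage was 1.86 to 3.06 in Mki67-/- and 2.4 to 3.7 in WT small pre-B libraries. The part of these library properties in the direction shared with pro-B cells was not tested. Whether libraries of different stages came from the same mice is not given in the sources used here.

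The 10 regions named above as rising varied in how far their presence differed in small pre-B cells. The Gpatch2 site nearest to Spata17 and the site 15.9 kb from Pde8a, a cAMP phosphodiesterase gene, were among the 40000 strongest in all 4 Mki67-/- small pre-B libraries and in 0 of 4 WT small pre-B libraries. The sites near Cdc42ep3 and Prelid2 had one in 3 and 0 libraries, and the site in Tmem63a in 2 and 0. In the full deposited lists all 5 sites had a peak in each Mki67-/- small pre-B library, and in WT small pre-B libraries the Gpatch2 site had one in 3, the Pde8a site in 2, the Prelid2 site in 1 and the other sites in 0. The sites near Ehd3 and Cdh9 were among the 40000 strongest in all 4 Mki67-/- and in 3 and 2 of 4 WT small pre-B libraries. In the deposited lists both had a peak in all 8. The sites at Rpa1, Dglucy and Sbk1 had one in all 8. Of the 10 regions that fell, all had a peak in all 8 small pre-B libraries, and the site near Hnrnpll was found in 0 of 4 Mki67-/- but 4 of 4 WT pre-pro-B libraries.

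**Figure D3:**
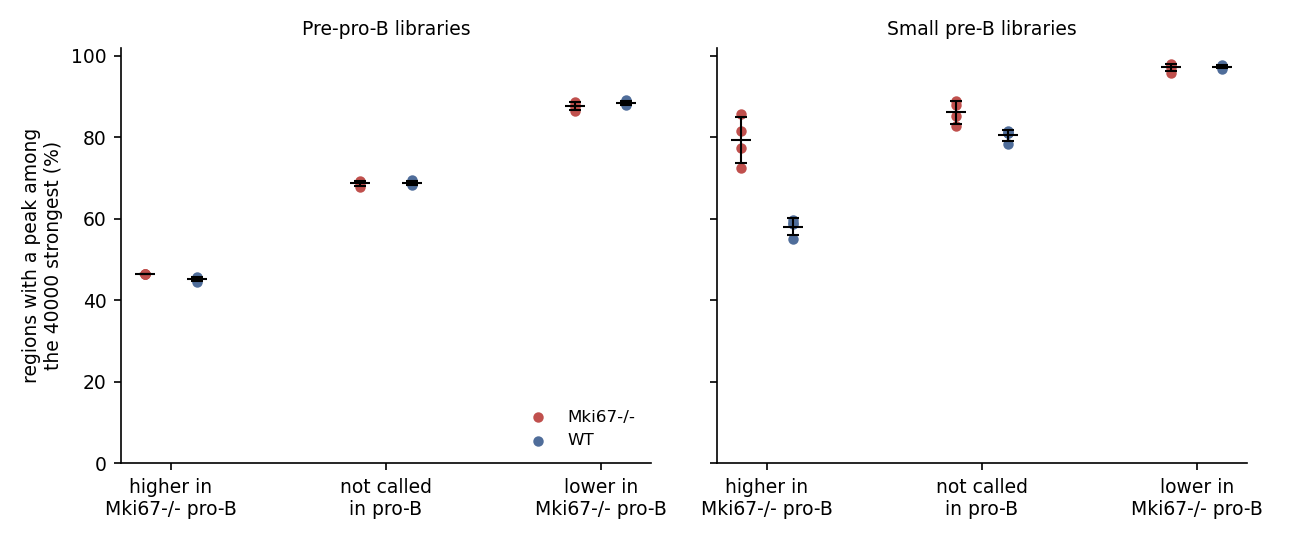
Percentage of the pro-B regions with a peak among the 40000 strongest in each library (points, with mean and SD of 4) of the pre-pro-B stage (left) and the small pre-B stage (right), for regions that rose, were not called or fell in Mki67-/- pro-B cells. Among regions that rose, Mki67-/- small pre-B libraries reach 72.6% to 85.7% and WT small pre-B libraries 54.9% to 59.6%.

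Peaks found in one genotype only were few and weak. Joined over the 8 deposited lists there were 95195 regions; 52406 were shared by all 8 libraries and the presence of 42789 varied. All 4 Mki67-/- libraries and 0 of 4 WT libraries had a peak at 276 regions (0.645% of those that varied) and the reverse held at 295 (0.689%). With peaks of a -log10 q under 10 left out, the counts were 169 and 286. Among the 40000 strongest peaks, 185 regions (1.03% of 17941 that varied) were present only in Mki67-/- and 178 (0.992%) only in WT libraries. The exact permutation test gives p = 0.0286 for such a split, and after adjustment over all regions no region passed; at an unadjusted p under 0.05 there were 571 and 363, the complete splits themselves.

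The strongest regions found only in Mki67-/- libraries included sites near Sbk1, Pwwp2b, Tnip1 and Dmbt1. Those near Sbk1, Pwwp2b and Dmbt1 lie within 10 Mb of Mki67. The Tnip1 site and the WT-only site in Lyrm7 both lie at 50 to 60 Mb of chromosome 11. Complete splits in both stretches are described further below. The site 8.69 kb from Pwwp2b (chromosome 7, 139275946 to 139276590) ranked 34070, 14623, 21273 and 23811 in Mki67-/- pro-B libraries 1 to 4 and had no peak in any WT pro-B library. In both other stages the site was again found in all 4 Mki67-/- libraries and in 0 of 4 WT libraries. In the body of Tnip1, an inhibitor gene of NF-kB signalling (chromosome 11, 54922735 to 54923339), a site ranked 28611, 31485, 20096 and 16151 in Mki67-/- libraries, and 3 of 4 Mki67-/- and 0 of 4 WT small pre-B libraries had it. The end of Eda2r, a receptor gene of the TNF family on the X chromosome, had a site (97377084 to 97377474) that ranked 34823, 27683, 25178 and 32908 in Mki67-/- libraries, and it was present in 4 of 4 Mki67-/- but 0 of 4 WT small pre-B libraries. Of the regions found only in WT libraries, the strongest lay 9.23 kb from Oxa1l, a gene of mitochondrial membrane insertion (chromosome 14, 54350926 to 54351611). It had no peak in Mki67-/- pro-B libraries, against ranks of 19034, 18916, 21829 and 18061 in WT libraries 1 to 4. In pre-pro-B cells 0 of 4 Mki67-/- and 4 of 4 WT libraries had it. A site in the body of Lyrm7, a gene of mitochondrial complex assembly (chromosome 11, 54844297 to 54844950), had no peak in Mki67-/- pro-B libraries, against ranks of 24177, 21924, 20479 and 20890 in WT libraries, and it was found in 0 of 4 Mki67-/- and 4 of 4 WT libraries of both other stages. At Dtx1, a regulator gene of Notch signalling, and at Cd9, a tetraspanin gene, the WT pro-B sites were present in all 8 small pre-B libraries.

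Complete splits were more frequent near Mki67 on chromosome 7 and occurred there in both directions. Within 10 Mb of Mki67 lay 17 of the regions found only in Mki67-/- libraries (6.16%) and 17 of those found only in WT libraries (5.76%), against 1.34% of all regions that varied. Of the 34 together, 17 had a peak in more small pre-B libraries of the same genotype and 1 in more of the other, with 16 equal. Elsewhere, leaving out a stretch of chromosome 11, the numbers were 125, 25 and 371 of 521. That stretch, 50 to 60 Mb of chromosome 11, held 16 complete splits, 7 in Mki67-/- and 9 in WT libraries. They made up 4.97% of 181 regions that varied at 50 to 55 Mb and 5.26% of 133 at 55 to 60 Mb. The stretch of 140 to 145 Mb of chromosome 7 held 16 of its 202 regions that varied (7.92%). On chromosome 1, the stretch of 180 to 185 Mb held 6 of 162 (3.7%), 5 of them found only in WT libraries. It is counted as elsewhere above and includes the Tmem63a site. Over all regions that varied, 0.645% were found only in Mki67-/- and 0.689% only in WT libraries. Regions called by rank were not concentrated in the same way: within 10 Mb of Mki67 8.21% rose and 6.97% fell of 402, against 5.73% and 6.24% of 30460 elsewhere. Differences carried by the chromosome 7 segment around the Mki67 allele and the loss of Ki-67 itself cannot be told apart.

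**Figure D4:**
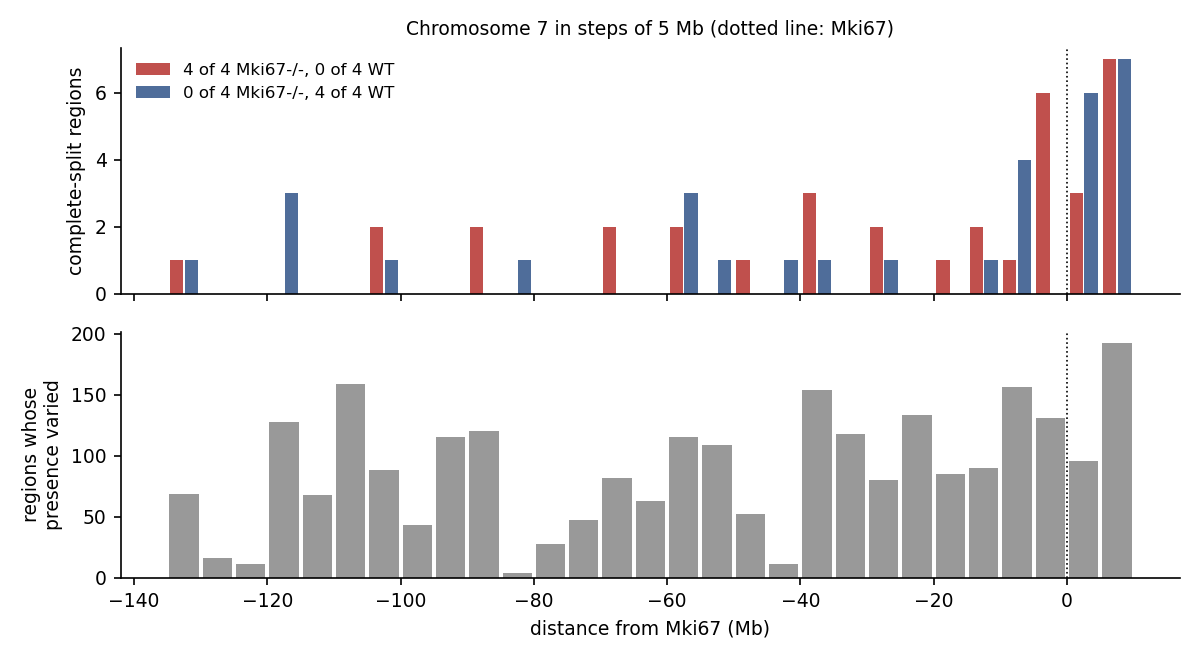
Top, regions of the deposited lists on chromosome 7 with a peak in all 4 libraries of one genotype and none of the other, by distance from Mki67 in steps of 5 Mb; bottom, all regions whose presence varied. Counts reach 7 per step in each genotype within 10 Mb of Mki67 and lie at 0 to 3 in steps farther away.

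Genes were compared by their number of peaks within the gene and 10 kb on both sides. In the deposited lists 100 genes had more peaks in every Mki67-/- library than in any WT library (0.594% of 16846 tested) and 119 had fewer (0.706%); among the 40000 strongest the counts were 95 (0.617% of 15402) and 112 (0.727%). No gene passed the adjustment of the exact permutation test in either list, and 219 and 207 had an unadjusted p under 0.05. Only 4 genes were higher (0.026%) and 1 lower (0.00649%) in both lists. Dmbt1, a gene of secreted mucosal defence, lies within 10 Mb of Mki67 on the same chromosome. It had 9, 9, 8 and 6 peaks in Mki67-/- libraries 1 to 4, against 3, 3, 2 and 0 in WT libraries 1 to 4. Among the 40000 strongest it had 5, 4, 5 and 5 peaks in Mki67-/- libraries and none in any WT library. Eda2r had 2 peaks in each Mki67-/- and none in any WT library. Cntnap5b, a gene of the neurexin family, had 5 to 6 peaks in Mki67-/- and 2 to 4 in WT libraries, where the 40000 strongest held 2 to 3 and 1. The fourth gene was 2010109A12Rik, with 2 to 3 peaks in Mki67-/- and 1 in WT libraries. Gsg1, named for its expression in germ cells, had 6 to 7 peaks in Mki67-/- and 8 to 9 in WT libraries.

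At Igh the Mki67-/- libraries held more of the strong peaks, those among the 40000 strongest of a library. Among the 40000 strongest, Igh (chromosome 12, 113256204 to 116009954) had 110, 106, 108 and 111 peaks in Mki67-/- libraries 1 to 4, against 96, 90, 91 and 100 in WT libraries 1 to 4. The genotypes did not overlap, at the smallest p the exact permutation test allows (p = 0.0286), but the adjusted p over 6 loci was 0.171. In the deposited lists Igh had 224.75 ± 10.7 peaks in Mki67-/- and 205.25 ± 14.7 in WT libraries (SD, n = 4 each, exact p = 0.143, adjusted p = 0.286), and there the libraries overlapped. The distal V segments, the part farthest from D, taken here as 114351705 to 116009954, hold most strong peaks of the locus in both genotypes and made up 9.75 of the mean difference of 14.5 peaks. They had 87, 86, 82 and 88 strong peaks in Mki67-/- libraries, against 75, 72, 76 and 81 in WT libraries (exact p = 0.0286, adjusted p = 0.143). Of the 80 V segments there, 42, 39, 39 and 38 had a strong peak within 500 bp in Mki67-/- libraries, against 35, 35, 34 and 36 in WT libraries (exact p = 0.0286, adjusted p = 0.143). The libraries did not overlap in either count. The D segments had 4.25 ± 1.71 strong peaks in Mki67-/- and 2.25 ± 1.26 in WT libraries (SD, n = 4 each, exact p = 0.2), the middle V segments 11.25 ± 0.5 and 9.5 ± 1.73 (exact p = 0.114) and the proximal V segments 1.5 ± 0.577 and 1 in each. The J segments and the intron next to Ighm, where the intronic enhancer lies, had 3 strong peaks in all 8 libraries, and the interval between D and V had none.

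By rank, 12 of the 75 Igh regions tested rose (16%) and 0 fell, beside 5.76% and 6.25% of all regions. Away from gene ends, 7.03% of all tested regions rose and 4.03% fell, with a median difference of 0.03. The median difference was 0.19 over Igh and 0.00 over all regions, with a positive sign at 64 of 75; by fold enrichment the median over Igh was 0.12, with 54 of 71 positive. All 12 lay among the middle and distal V segments, which also held 7 and 61 of the 75 regions tested. The region at Ighv8-9 (chromosome 12, 115467955 to 115468811) ranked 28036, 23503, 22379 and 27687 in Mki67-/- libraries, against 36191, 34233, 31739 and 38627 in WT libraries (difference 0.90 ± 0.239 SE, adjusted p = 0.0191). The region at Ighv1-2 (114468848 to 114469528) ranked 12300, 12076, 14956 and 12698 in Mki67-/- libraries, against 14821, 19995, 17934 and 20548 in WT libraries (difference 0.35 ± 0.0869 SE, adjusted p = 0.0143). One WT library lay inside the Mki67-/- range there, while the genotypes did not overlap at Ighv8-9. Each of the 12 calls was lost without at least 1 library, 11 of them without WT library 2 and that at Ighv8-9 without Mki67-/- library 3 (adjusted p = 0.067). By fold enrichment 0 of the 12 passed and all 12 had a positive sign. V segments fall into families, some of whose members are nearly identical, and reads that fit several members may be placed at any of them, so the segment at which a peak lies is uncertain. The segments are named by the nearest annotated one, and how the authors' alignment treated such reads is not given in the sources used here.

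The other receptor loci were described in the same way. Tcra/Tcrd had 20, 16, 16 and 17 strong peaks in Mki67-/- libraries, against 14, 16, 14 and 14 in WT libraries (exact p = 0.0857, adjusted p = 0.257). Of its 12 tested regions 3 rose and 0 fell, beside 5.76% and 6.25% of all regions. Igk, which is rearranged at the next stage, had 26 ± 3.83 strong peaks in Mki67-/- and 25.25 ± 4.43 in WT libraries (SD, n = 4 each, exact p = 0.886), and 0 of its 16 tested regions were called. In the deposited lists it had 59 ± 9.76 and 76.25 ± 12.5 peaks (SD, n = 4 each, exact p = 0.114, adjusted p = 0.286). Igl, Tcrb and Tcrg overlapped between genotypes in both lists, with 1 of 5 regions called at Igl and 0 of 7 and 0 of 3 at Tcrb and Tcrg. Over all regions, 12% were called in either direction.

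**Figure D5:**
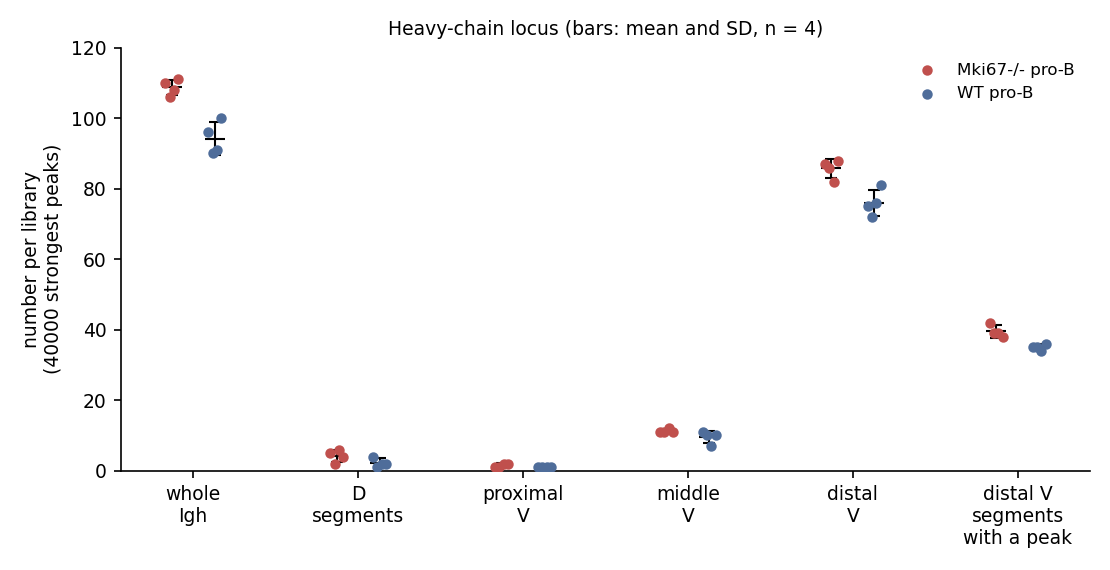
Number of peaks among the 40000 strongest per library (points, with mean and SD of 4) over Igh and its parts, and number of distal V segments with a peak within 500 bp. Mki67-/- libraries have 106 to 111 peaks over the locus and WT libraries 90 to 100, and 82 to 88 and 72 to 81 over the distal V segments.

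Genes were also compared by the best-ranked peak in the gene and 10 kb on both sides. Of 14704 genes with such a peak among the 40000 strongest in all 8 libraries, 982 (6.68%) ranked higher and 1591 (10.8%) lower in Mki67-/- libraries, with a median difference of -0.02 over all genes. By fold enrichment 33 were higher and 84 lower, and without WT library 2 there were 411 higher and 773 lower. Without Mki67-/- library 1, Mki67-/- library 4 or WT library 3 the number higher was 642, 577 and 615. From 13 lists of B-lineage, recombination, signalling, cycle and chromatin genes and of other blood lineages, 199 entries matched a protein-coding gene. Of 179 different genes tested, 12 rose (6.7%) and 16 fell (8.94%), close to the shares over all genes. The counts per list below are small and stand beside 6.68% higher and 10.8% lower over all genes. Of these 28 calls, 9 held when each library was left out in turn, among them Vpreb2, Prkdc and Mcm4, Pik3cd, Cenpe, Cdc20, Rad21 and Gp1ba. The other 19 were lost without at least 1 library, 18 of them without WT library 2 and Il2rg without Mki67-/- library 1 or 4. By fold enrichment 1 of the 28, Cenpe, passed, 22 had the same sign, and Vpreb2, Erg, Runx1, Bcl2, Lig4 and Syk had the opposite sign. In 0 of the 13 lists did the summed peak number of a library separate the genotypes in either the deposited or the 40000 strongest lists.

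Early B-lineage genes were open in both genotypes: 3 of 24 rose and 1 fell, with a median difference in rank score of 0.03. Vpreb2, which encodes a surrogate light chain, ranked 5399 to 6200 in Mki67-/- and 7571 to 9416 in WT libraries (difference 0.24 ± 0.0554 SE, adjusted p = 0.00591). The Ets factor gene Erg ranked 1230 to 1582 in Mki67-/- and 1865 to 3516 in WT libraries (difference 0.25 ± 0.0677 SE, adjusted p = 0.0149). Blnk, the adaptor gene of pre-B receptor signalling, fell (5276 to 7372 in Mki67-/- and 4601 to 5065 in WT libraries, difference -0.19 ± 0.0573 SE, adjusted p = 0.0247). Ebf1 and Pax5 had differences of 0.12 (adjusted p = 0.184) and 0.12 (adjusted p = 0.227), which did not pass. Erg and Blnk reached adjusted p-values of 0.0714 and 0.0781 when 1 library was left out, and by fold enrichment Vpreb2 and Erg had differences of -0.14 and -0.33.

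Of the recombination and end-joining genes, 2 of 15 rose and 2 fell, with a median of 0.02. Prkdc, which encodes the catalytic subunit of DNA-PK in end joining, ranked 2253, 2463, 2250 and 2131 in Mki67-/- libraries, against 1212, 1078, 1467 and 1296 in WT libraries (difference -0.28 ± 0.0574 SE, adjusted p = 0.00323). Its start is shared with Mcm4, a helicase gene of the replication list, and both have the same best peak, so these are 1 measurement. Lig4, the DNA ligase gene of this pathway, fell by 0.19 ± 0.0599 SE in rank score (adjusted p = 0.0337). Trp53bp1, which protects broken ends, rose (0.20 ± 0.056 SE, adjusted p = 0.0176), as did Xrcc4, the partner of Lig4 (0.18 ± 0.0627 SE, adjusted p = 0.0466). Rag1 ranked 9885 to 10532 in Mki67-/- and 8260 to 9175 in WT libraries, and Rag2 11860 to 14008 in Mki67-/- and 11761 to 16059 in WT libraries; neither passed. With 1 library left out, the adjusted p reached 0.0606 for Trp53bp1, 0.146 for Lig4 and 0.147 for Xrcc4, and Lig4 had a difference of 0.05 by fold enrichment.

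Of the pre-B receptor signalling genes, 1 of 13 rose and 2 fell, with a median of -0.08. Pik3cd, which encodes the PI3-kinase subunit of leukocytes, ranked 336, 151, 670 and 305 in Mki67-/- libraries, against 748, 1526, 1474 and 1013 in WT libraries (difference 0.50 ± 0.0964 SE, adjusted p = 0.00229). It was among the strongest peaks of every library. The kinase gene Syk, which acts directly below the receptor, fell (1845 to 3045 in Mki67-/- and 1264 to 1766 in WT libraries, difference -0.23 ± 0.0655 SE, adjusted p = 0.0212). Of the IL-7 receptor and Jak-Stat genes, 1 of 12 rose and 1 fell, with a median of 0.01: the common cytokine receptor chain gene Il2rg fell (difference -0.26 ± 0.0675 SE, adjusted p = 0.0127) and the survival gene Bcl2 rose at the edge of the threshold (difference 0.20 ± 0.0698 SE, adjusted p = 0.0499). Il7r ranked 23121 to 25114 in Mki67-/- and 19581 to 25407 in WT libraries, which overlap. With 1 library left out, the adjusted p reached 0.0806 for Syk, 0.0521 for Il2rg and 0.159 for Bcl2, and by fold enrichment Syk had a difference of 0.11 and Bcl2 of -0.01.

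Among genes of division and chromatin, calls went both ways, beside 6.68% higher and 10.8% lower over all genes. Of the mitosis and perichromosomal genes, to which Ki-67 itself belongs by function, 2 of 18 rose and 2 fell, with a median of 0.03. Cenpe, a kinetochore motor gene, ranked 20910, 19102, 20438 and 20821 in Mki67-/- libraries, against 14151, 8576, 10595 and 12164 in WT libraries (difference -0.60 ± 0.0844 SE, adjusted p = 0.000357). In WT libraries its best peak was thus stronger than the middle of the list, rank 20000. In Mki67-/- libraries it lay near that middle. Npm1, which encodes a nucleolar protein, fell (difference -0.21 ± 0.0697 SE, adjusted p = 0.0376), and Cdc20 and Kif20a, both of late mitosis, rose (0.25 ± 0.0621 and 0.18 ± 0.0542 SE, adjusted p = 0.0104 and 0.0303). Of the replication and G1/S genes, 0 of 18 rose and 1 fell, the Mcm4 site above, with a median of 0.04. Of the chromatin architecture genes, 1 of 18 rose and 3 fell, with a median of -0.01. Ctcf, the insulator protein gene, ranked 337 to 443 in Mki67-/- and 574 to 995 in WT libraries (difference 0.26 ± 0.0693 SE, adjusted p = 0.0147). Rad21, a cohesin subunit gene, ranked 7673 to 10436 in Mki67-/- and 4665 to 6179 in WT libraries (difference -0.28 ± 0.0618 SE, adjusted p = 0.00441). The maintenance DNA methyltransferase gene Dnmt1 and the heterochromatin protein gene Cbx3 also fell (differences -0.28 ± 0.0791 and -0.22 ± 0.0766 SE, adjusted p = 0.0219 and 0.0473). With 1 library left out, the adjusted p reached 0.0595 for Ctcf, 0.0862 for Dnmt1, 0.142 for Cbx3 and Npm1 and 0.102 for Kif20a, against 0.00168 for Cenpe, 0.0375 for Cdc20 and 0.0251 for Rad21.

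Genes of other lineages were called in both directions, beside 17.5% of all genes called in either. Of the stem and progenitor genes 2 of 15 tested rose (Runx1, 0.31 ± 0.0837 SE, adjusted p = 0.0169, and Erg, given above) and 2 fell (Hlf, -0.27 ± 0.0873 SE, and Mecom, -0.28 ± 0.09 SE, adjusted p = 0.0357 and 0.0362), with a median of -0.08. Of the T, NK and innate lymphoid genes 1 of 14 rose (Cd4, 0.22 ± 0.0669 SE, adjusted p = 0.0293) and 1 fell (Klrb1c, -0.24 ± 0.0809 SE, adjusted p = 0.0446), with a median of -0.02. Of the erythroid and megakaryocyte genes 0 of 8 rose and 2 fell (Gp1ba, -0.29 ± 0.0592 SE, adjusted p = 0.00313, and Zfpm1, -0.20 ± 0.0632 SE, adjusted p = 0.0366), with a median of -0.03. None of 10 myeloid, 8 plasmacytoid and 11 mature B-cell genes tested was called, with medians of 0.02, 0.01 and -0.06. Among the calls named here, that at Gp1ba alone held with each library left out (largest adjusted p = 0.0146); the others reached 0.0688 to 0.123.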

How the data were processed

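Peak lists of the 8 pro-B libraries were analysed, and those of the other 16 were used to describe called regions. Per the submitters' processing notes, reads were trimmed with Trimmomatic and peaks called with MACS2 on mm10; deepTools, DiffBind and DESeq2 are also named there, without versions. The authors' score equals -log10 q times 10, as tested on the values, and their fold enrichment is a ratio, the summit over its local background. The deposited -log10 p and -log10 q rank peaks within one library only, and the lowest -log10 q was 2, a q threshold of 0.01. Entries that overlapped or touched were merged; an overlap of 1 bp with a region sufficed for presence.

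Rank scores were tested with limma 3.58.1 (eBayes with trend and robust settings, R 4.3.3) and Benjamini-Hochberg adjustment at 0.05. Single values per library were tested with two-sided exact permutation tests, whose smallest p for 4 against 4 is 0.0286. Both tests were checked on simulated data. The simulation for limma drew noise independently for each region and library, with no shift shared by many regions of a library. It therefore does not give the rate of false calls in these data. Genes were protein-coding entries of RefSeq on GRCm38.p6, the assembly of mm10. Errors are SDs over libraries or SEs of the limma fit. No read depth was available to these tests, so no counting intervals are given; the recovered background coverage stands in for depth.

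Named were Mki67, the receptor loci, the 10 regions per direction with the smallest limma p, the strongest complete-split regions up to 10 per genotype, genes separated in both lists, up to 4 members per gene list in order of p, and the markers; Ebf1, Pax5, Rag1, Rag2 and Il7r are markers. The Igh regions and promoter bands given as examples were picked after their values were seen. The libraries, members and gene lists were chosen with earlier results of these data known. The values of 1 list gene are not reported here.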

Additional observations from a re-analysis of the deposited data

Results flagged for a closer look

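One library lay apart from the other 3 of its group in 7 of 105 groups of 4 tested; chance gives such a gap in about 1 of 20 groups, and most of the 7 are small whole numbers where a single peak makes the gap. In the deposited lists, WT library 3 had 7 peaks at Igl where the other WT libraries had 8, and WT library 2 had 8 peaks at the Igh constant genes where the others had 7. Among the 40000 strongest peaks, Mki67-/- library 1 had 38.565% of peaks in gene bodies, where the other Mki67-/- libraries had 38.2875% to 38.325%. WT library 2 had 16 peaks at Tcra/Tcrd where the other WT libraries had 14, Mki67-/- library 3 had 10 at Tcrb where the others had 11 and 12 over the middle V segments of Igh where the others had 11, and WT library 3 had 3 middle V segments with a peak where the others had 5.

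The region 18.1 kb from Sbk1 (chromosome 7, 126229960 to 126230253), found in 4 of 4 Mki67-/- and 0 of 4 WT pro-B libraries, was found in 0 of 4 Mki67-/- and 4 of 4 WT pre-pro-B libraries. The opposite direction in the other stage was noted library by library and the difference was not tested.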

How the results depend on the processing

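Counts of calls by rank depended on the ranking, on the libraries left out and on fitting all 24 libraries. Leaving out 1 library at a time gave 609 to 1922 regions higher and 626 to 1896 lower in Mki67-/- libraries, and 411 to 1070 genes higher and 773 to 1613 lower; the lowest counts came without WT library 2. Ranking by fold enrichment gave 39 and 40 regions and 33 and 84 genes, and 1 fit to all 24 libraries, limited to 16778 regions found in all of them, gave 112 and 527 regions and 136 and 332 genes. In that fit 17.5% of the calls were rises, against 48% among the 8 libraries. No region called with and without the change of setting had opposite signs in any of 17 settings. The settings share most or all of their libraries with the main fit, and only regions called in both were compared. Opposite signs were therefore unlikely from the outset. The excess of falls over rises at gene ends was 0.0199 percentage points by fold enrichment, 2.66 in the fit to all 24 libraries and 2.8 to 6.29 without 1 library. The median small pre-B difference was taken over the regions called in each setting. It was 0.172 to 0.231 for rises and -0.069 to -0.051 for falls without 1 library. Among the 39 rises and 40 falls called by fold enrichment it was 0.115 and -0.151. For the regions called by -log10 q, the medians by fold enrichment were 0.19 for rises and 0.02 for falls. Centring on promoter G+C gave 669 rises and 723 falls. The 20 named regions gave 321 comparisons, of which 304 kept their call and 17 lost it, 15 by fold enrichment and 2 in the fit to all 24 libraries; none changed direction. Of 28 list genes, 6 changed sign by fold enrichment: Bcl2 (-0.00678), Erg (-0.332), Lig4 (0.0496), Runx1 (-0.00513), Syk (0.107) and Vpreb2 (-0.14). The cause of these shifts was not tested.

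Complete splits found only in Mki67-/- libraries numbered 169 in the deposited lists restricted to a -log10 q of 10 or more, against 286 found only in WT libraries. Without 1 library the deposited lists gave 346 to 605 found only in Mki67-/- and 368 to 610 found only in WT libraries; with the 20000 strongest peaks 121 were found only in Mki67-/- libraries, and without 1 library 224 to 329 and 218 to 306 among the 40000. Genes separated by peak number were 62 higher and 147 lower above the same limit, and without 1 library 134 to 259 higher and 161 to 283 lower in the deposited lists and 116 to 167 and 126 to 197 among the 40000. Splits without 1 library are more frequent because fewer libraries have to separate. The difference between genotypes changed sign without some library for 9 small differences: peak number (-1678 to 1309), covered length (-0.227 to 1.69 Mb), the share of peaks at gene ends (-0.107 to 0.491 percentage points), in gene bodies (-0.219 to 0.0933) and between genes (-0.281 to 0.0767), the peaks at the Igh constant genes (-0.583 to 1.42) and at Igk among the 40000 (-0.667 to 2.42), the proximal V segments with a peak in the deposited lists (-0.25 to 1.42) and the middle V segments with a peak among the 40000 (-0.25 to 0.5). The constant genes also gave -0.25 at a -log10 q of 5 or more and -0.25 at 10 or more.

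Same-numbered libraries correlated by 0.17, 0.01, 0.09 and 0.08 in their deviations, so the numbers were not taken as pairs, although 6 of 8 libraries correlated best with their own number. With the replicate block, 2434 regions rose and 2520 fell, and 278 genes were higher and 295 lower by peak number in the deposited lists and 169 and 197 among the 40000. Depth enters only through the recovered coverage, and with it as a covariate 1513 regions rose and 1668 fell.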
